A study of Mus musculus with 14 samples.

Results

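Meox1, Meox2, Tcf15, Pax1, Pax3, Pax9, Foxc1, Foxc2 and Uncx encode transcription factors of the somites and of the sclerotome. They were chosen by name from the table of normalized read counts, which lists 8 of the 9 among its 16181 protein-coding genes. Uncx was found only in the table of raw read counts, which holds 50686 genes. RNA was sequenced from mouse embryonic stem cells (ESCs) and from the embryoid bodies (EBs) made of them, which are aggregates that differentiate without further guidance. One line carried an shRNA against Dis3l2 (shDis3l2), an exonuclease of uridylated RNA, and the control line an shRNA against LacZ (shLacZ), and the comparison addresses what the loss of DIS3L2 does to differentiation. Each line gave 1 library on each of d0, d2, d4, d6, d8, d10 and d12, so that the 14 libraries hold no replicates.

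At d0 the cells of both lines were kept undifferentiated in LIF/2i, and for the later days LIF/2i was withdrawn and EBs were formed in hanging drops with serum. Both lines were made by stable knockdown in ESCs that also carry an Osr1 reporter, and each is a single line. At d0 the pluripotency gene Pou5f1 had a level of 1198 in the control library and 719 in that of shDis3l2, in CPM (read counts normalized to the library total). EBs are mixtures of tissues, and in bulk RNA fewer cells of a type and less RNA per cell cannot be told apart. Dis3l2 was at 13.7% of its shLacZ level in the shDis3l2 library of d0 (95% counting interval 11.1 to 16.7), at 28.1% at d2, 32.1% at d4 and 55.2% at d6. The library labelled shDis3l2 held 97.1% of the shLacZ level at d8 (83.7 to 113) and 75.5% at d12 (60.9 to 93.4), and at d10 its 18.3 CPM stood against 19.2 CPM in shLacZ, with an interval of 78.8% to 115%. Most differences described here fall on d6 to d12, when the targeted mRNA itself stood between 55.2% and 97.1% of the control, so the late libraries are named by their labels. Between 7178712 and 39888099 reads per library were counted on genes, and the library of d4 and that of d10 were 2.88 and 2.56 times deeper for the label shDis3l2 than for shLacZ.

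Somites are blocks of paraxial mesoderm that bud off beside the neural tube. Their ventral part becomes the sclerotome, the source of vertebrae and ribs, under Hedgehog signals from the notochord and floor plate, and their dorsal part becomes the dermomyotome, the source of skeletal muscle and dermis. TCF15 (Paraxis) is a basic helix-loop-helix factor needed for somites to become epithelial, and MEOX1 and MEOX2 are homeodomain factors of the early somite. FOXC1 and FOXC2 are forkhead factors of paraxial and other mesoderm, PAX3 marks the dermomyotome and the dorsal neural tube, and PAX1, PAX9 and UNCX mark the sclerotome. None of the 9 is exclusive to somites. Tcf15 is also transcribed in pluripotent cells that are about to differentiate, Pax1 and Pax9 in the pharyngeal pouches, and Foxc1 and Foxc2 in vessels and head mesenchyme.

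Promoter sequences, from 250 bases before to 50 bases after the start of the gene as RefSeq gives it (GRCm38.p6), were matched for 5 of the 9 genes. The starts in the count table, printed with each gene further on, are not all the same. The windows of Pax1, Pax9 and Uncx lie inside those genes as counted. The 2 shown belong to Meox2, which differed between the lines in the test described later, and to Foxc1, which has the most reads among the 5 and did not. Capitals mark the E-box CANNTG, the element that basic helix-loop-helix factors bind. It reads the same on both strands.
Meox2, chr12:37108290-37108589, plus strand: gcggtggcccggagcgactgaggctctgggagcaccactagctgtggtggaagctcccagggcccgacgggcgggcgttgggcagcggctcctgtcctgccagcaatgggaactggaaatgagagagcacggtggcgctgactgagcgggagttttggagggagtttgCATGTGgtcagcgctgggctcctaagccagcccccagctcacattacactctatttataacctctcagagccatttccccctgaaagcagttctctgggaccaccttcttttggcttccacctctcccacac
Foxc1, chr13:31806396-31806695, plus strand: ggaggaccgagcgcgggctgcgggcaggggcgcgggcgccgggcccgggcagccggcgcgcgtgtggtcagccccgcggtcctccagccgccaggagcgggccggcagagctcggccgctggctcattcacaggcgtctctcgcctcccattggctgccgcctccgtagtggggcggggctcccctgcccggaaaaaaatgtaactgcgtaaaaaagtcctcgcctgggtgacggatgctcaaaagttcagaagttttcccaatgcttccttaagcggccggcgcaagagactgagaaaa

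The Meox2 window holds 1 E-box and the Foxc1 window none, where 72.3% of the 32851 promoters in the table hold at least 1. Uncx has 1, Pax9 has 2 and Pax1 has none. The Meox2 window also holds 1 match to TATAAA, searched on both strands, which 13.6% of all promoters hold, and the Foxc1 window none. TAATTA, a core that homeodomain factors bind, occurs in 5.29% of all promoters, and among the 5 windows it was found in that of Uncx alone, at 2 positions. CpG dinucleotides number 32 in Foxc1, 26 in Uncx, 13 in Pax1, 12 in Meox2 and 11 in Pax9.

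Apart from Tcf15 at d0 and d2, the 9 genes were low in these libraries. Of their 126 values, 95 lay under 1 CPM and 51 at or under the floor of 3 reads. No fold between the lines is given where both libraries of a day are at or under that floor, and a fold with 1 library there has a wide interval. Tcf15 reached 12.4 CPM, the highest value of the set, and was followed by Foxc1 with 7.44, Meox1 with 3.46 and Foxc2 with 2.72. The highest values of Meox2, Pax3, Pax1 and Pax9 were 1.97, 1.2, 1.17 and 1.09 CPM, and Uncx did not exceed 0.0992 CPM. Per length, as RPKM, which is CPM over the gene length in kilobases, the mean level over the 8 libraries of d6 to d12 was 1.29 ± 1.04 (SD over libraries) for Tcf15, 0.666 ± 0.223 for Foxc1, 0.523 ± 0.569 for Meox1, 0.379 ± 0.334 for Foxc2 and 0.266 ± 0.288 for Meox2. Below these stood Pax9 with 0.118 ± 0.0480, Pax3 with 0.0972 ± 0.0494, Pax1 with 0.0811 ± 0.101 and Uncx with 0.00395 ± 0.0112 RPKM. Neighbours in this order differ by less than their spread, and the order depends on the line. In shLacZ Tcf15 came first with a mean of 2.03 RPKM, before Foxc1 with 0.608, Meox1 with 0.174 and Foxc2 with 0.154, and Pax3 with 0.135 and Pax9 with 0.132 stood above Meox2 with 0.108. In the libraries labelled shDis3l2 Meox1 came first with 0.872, before Foxc1 with 0.724, Foxc2 with 0.605, Tcf15 with 0.543 and Meox2 with 0.425 RPKM. Even the highest of these late values, Tcf15 at d12 in shLacZ, exceeded only 59.3% of protein-coding genes in RPKM. At d2 Tcf15 had exceeded 82.2% of them in shLacZ and 80.3% in shDis3l2, and at d0 77.9% and 73.2%.

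**Figure D1:**
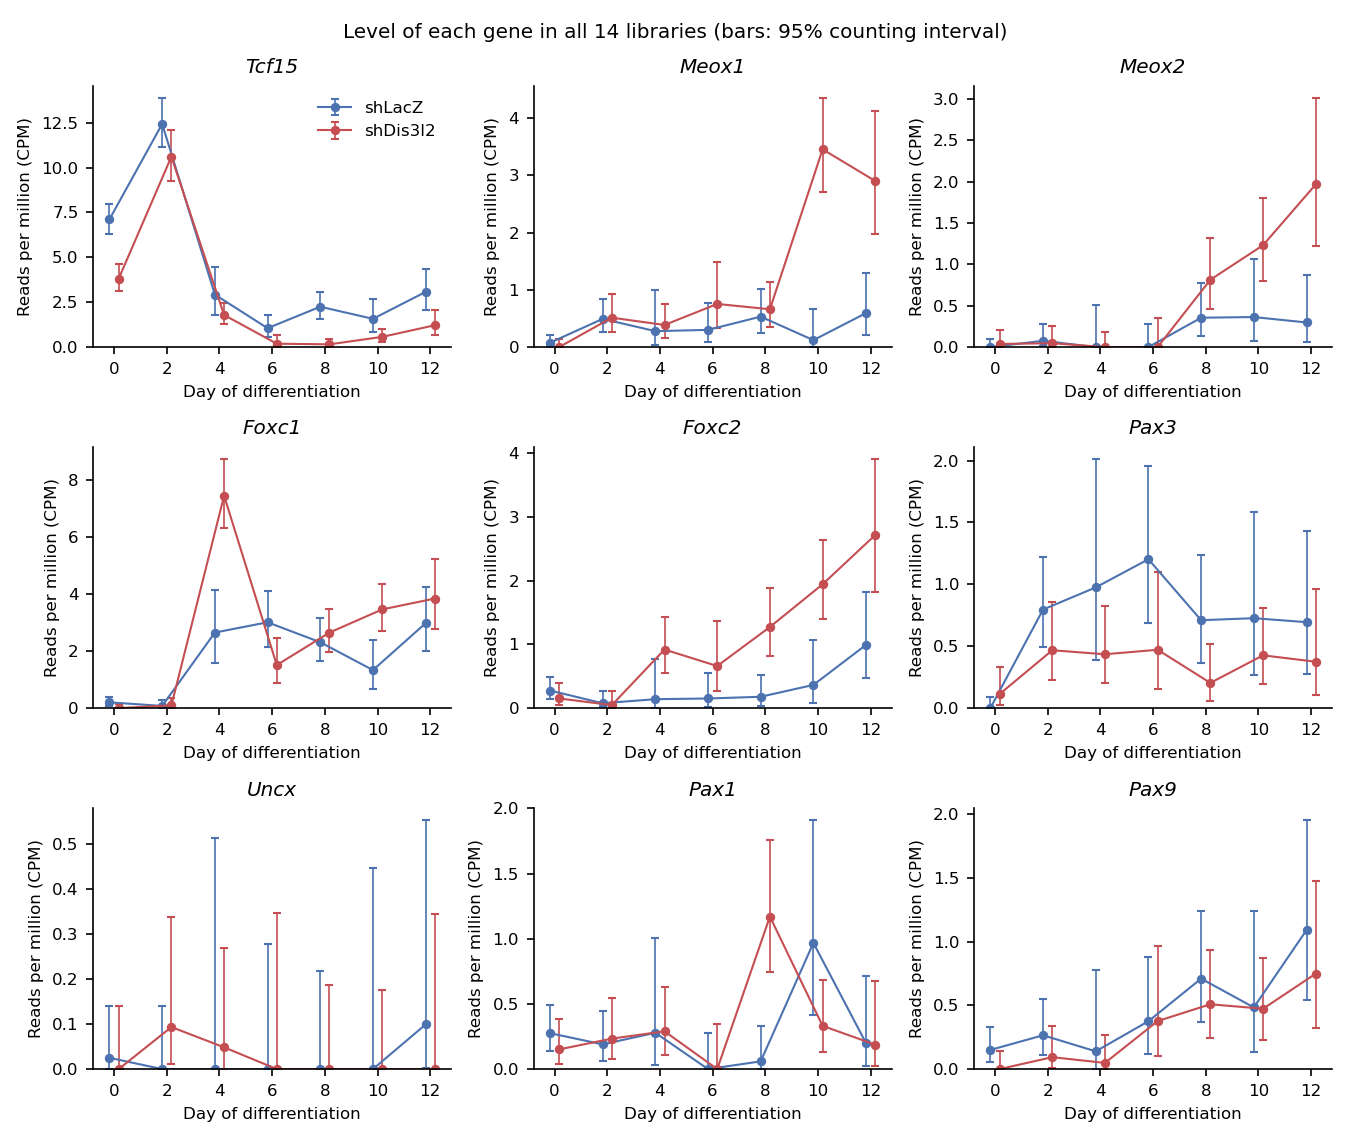
Level of each of the 9 genes in CPM (vertical axis, own scale per gene) against the day of differentiation, with 1 point per library, blue for shLacZ and red for shDis3l2, and bars for the 95% counting interval. Tcf15 was highest at d2 in both lines, while Meox1, Meox2 and Foxc2 were highest at d10 or d12 in the libraries labelled shDis3l2.

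Tcf15 (chromosome 2, 152143561 to 152149097, plus strand, GRCm38) was highest at d2 in both lines, and the sum of the presomitic genes described later was highest at d4. In shLacZ it had 284, 328, 21, 14, 38, 13 and 31 reads from d0 to d12, which is 7.12, 12.4, 2.93, 1.05, 2.25, 1.57 and 3.07 CPM. In shDis3l2 the reads numbered 101, 227, 37, 2, 3, 12 and 13 reads, which is 3.81, 10.6, 1.79, 0.188, 0.153, 0.568 and 1.22 CPM. The libraries of d0 and d2 were thus higher than every later library of both lines. From d2 to d4 the level was 4.23-fold lower in shLacZ and 5.90-fold lower in shDis3l2.

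In each of the 7 pairs of libraries the one labelled shDis3l2 had less Tcf15. The fold was 0.537 at d0 (95% counting interval 0.423 to 0.675), 0.853 at d2 (0.717 to 1.01), 0.613 at d4 (0.349 to 1.10), 0.190 at d6 (0.0198 to 0.780) and 0.0736 at d8 (0.0134 to 0.214). At d10 it was 0.367 (0.151 to 0.859) and at d12 0.399 (0.190 to 0.779). At d0 the median of all genes with at least 1 CPM was itself at -0.32 on the log2 scale, and it moved to -0.12 with TMM factors and to 0.08 with DESeq2 size factors. On the other days the median stayed within 0.1 of 0 under all 3 scalings.

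Meox1 (chromosome 11, 101877510 to 101894374, minus strand) separated the lines at d10 and d12. It had 3, 13, 2, 4, 9, 1 and 6 reads from d0 to d12 in shLacZ and 0, 11, 8, 8, 13, 73 and 31 reads in shDis3l2. At d10 this is 0.121 CPM in shLacZ and 3.46 CPM in the library labelled shDis3l2, and at d12 0.595 and 2.90 CPM. The 4 late libraries labelled shDis3l2, from 0.661 to 3.46 CPM, all lay above the 4 of shLacZ, from 0.121 to 0.595 CPM. The fold was 25.7 at d10 (4.97 to 1143), on a single read in the shallow shLacZ library, and 4.79 at d12 (2.01 to 14.3). At d2, d4, d6 and d8 the interval of the fold included 1. Within the line labelled shDis3l2 the level was 5.14-fold higher at d10 than at d8 (2.87 to 10.3).

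Meox2 (chromosome 12, 37108540 to 37179534, plus strand), whose promoter is printed above, was close to absent before d8. From d0 to d6 neither line exceeded 2 reads. At d8, d10 and d12 it had 6, 3 and 3 reads in shLacZ, or 0.355, 0.363 and 0.298 CPM, and 16, 26 and 21 reads in the libraries labelled shDis3l2, or 0.814, 1.23 and 1.97 CPM. The 3 values labelled shDis3l2 lay above those of shLacZ on these days. The fold was 2.24 at d8 (0.852 to 7.16), 3.30 at d10 (1.04 to 17.5) and 6.36 at d12 (1.97 to 34.6).

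Foxc1 (chromosome 13, 31806691 to 31810643, plus strand) appeared at d4 in both lines. In shLacZ it had 8, 2, 19, 40, 39, 11 and 30 reads from d0 to d12, or 0.201, 0.0758, 2.65, 3.01, 2.31, 1.33 and 2.98 CPM. In shDis3l2 it had 0, 2, 154, 16, 52, 73 and 41 reads, or 0, 0.0935, 7.44, 1.51, 2.65, 3.46 and 3.84 CPM. The shDis3l2 library of d4 stood out as the highest, and the fold there was 2.80 (1.74 to 4.80). At d6 the direction was the opposite, with a fold of 0.504 (0.262 to 0.916), and at d10 it was 2.58 (1.37 to 5.43). The intervals at d8 (0.743 to 1.78) and d12 (0.786 to 2.14) included 1.

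Foxc2 (chromosome 8, 121116171 to 121118895, plus strand) had 11, 2, 1, 2, 3, 3 and 10 reads from d0 to d12 in shLacZ and 4, 1, 19, 7, 25, 41 and 29 reads in shDis3l2. From d4 onward the library labelled shDis3l2 was the higher on each day, with 0.918, 0.660, 1.27, 1.94 and 2.72 CPM against 0.139, 0.150, 0.177, 0.363 and 0.992 CPM in shLacZ. The fold was 6.08 at d4 (1.05 to 274) and 4.10 at d6 (0.836 to 43.3), both on at most 2 reads in shLacZ. It was 6.72 at d8 (2.19 to 37.1), 5.19 at d10 (1.71 to 27.0) and 2.71 at d12 (1.30 to 6.30).
Foxc2 lies between Foxf1 and Foxl1, which are forkhead genes of lateral plate and gut mesenchyme, and beside Mthfsd. Foxf1 had 49.0, 29.7, 13.2 and 27.2 CPM at d6, d8, d10 and d12 in shLacZ and 69.4, 80.4, 46.0 and 50.8 CPM in the libraries labelled shDis3l2. Foxl1 had 0, 3, 4 and 6 reads against 0, 4, 18 and 40. Mthfsd, between 35.6 and 46.2 CPM in these 8 libraries, had ranges in the lines that overlapped.

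Pax3 (chromosome 1, 78101267 to 78197134, minus strand) had 0, 21, 7, 16, 12, 6 and 7 reads from d0 to d12 in shLacZ and 3, 10, 9, 5, 4, 9 and 4 reads in shDis3l2. From d2 onward the CPM of the library labelled shDis3l2 was the lower on each day, from 0.204 to 0.471 against 0.694 to 1.2 in shLacZ. Of the folds of these days only that of d8, 0.300 (0.0674 to 0.946), had an interval that left out 1.

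For the sclerotome genes a difference between the lines was detectable at this depth on no more than 1 day. Pax1 (chromosome 2, 147361925 to 147393295, plus strand) had 11, 5, 2, 0, 1, 8 and 2 reads from d0 to d12 in shLacZ and 4, 5, 6, 0, 23, 7 and 2 reads in shDis3l2. Its one high value was that of d8 in the library labelled shDis3l2, 1.17 CPM against 0.0592, a fold of 16.2 (3.21 to 815) on 1 read in shLacZ. At d10 the fold was 0.352 (0.106 to 1.08), so the 2 days lay on opposite sides of 1. Pax9 (chromosome 12, 56691767 to 56712822, plus strand) had 6, 7, 1, 5, 12, 4 and 11 reads in shLacZ and 0, 2, 1, 4, 10, 10 and 8 reads in shDis3l2. Its level was higher at d8 to d12 than at d0 to d4 in both lines, and the folds between the lines at d6, d8, d10 and d12 lay between 0.691 and 1.0 with intervals that all included 1. Uncx (chromosome 5, 139543494 to 139548179, plus strand) had 5 reads in all 14 libraries together and at most 2 in one, which is under the floor throughout. An antisense gene overlaps an exon of Pax1 and the 3′ end of Slc25a21 overlaps Pax9, and since the strand setting of the counting is not given in the sources used here, reads of such pairs cannot be told apart. These partners had 7 and 81 reads over the 14 libraries.

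**Figure D2:**
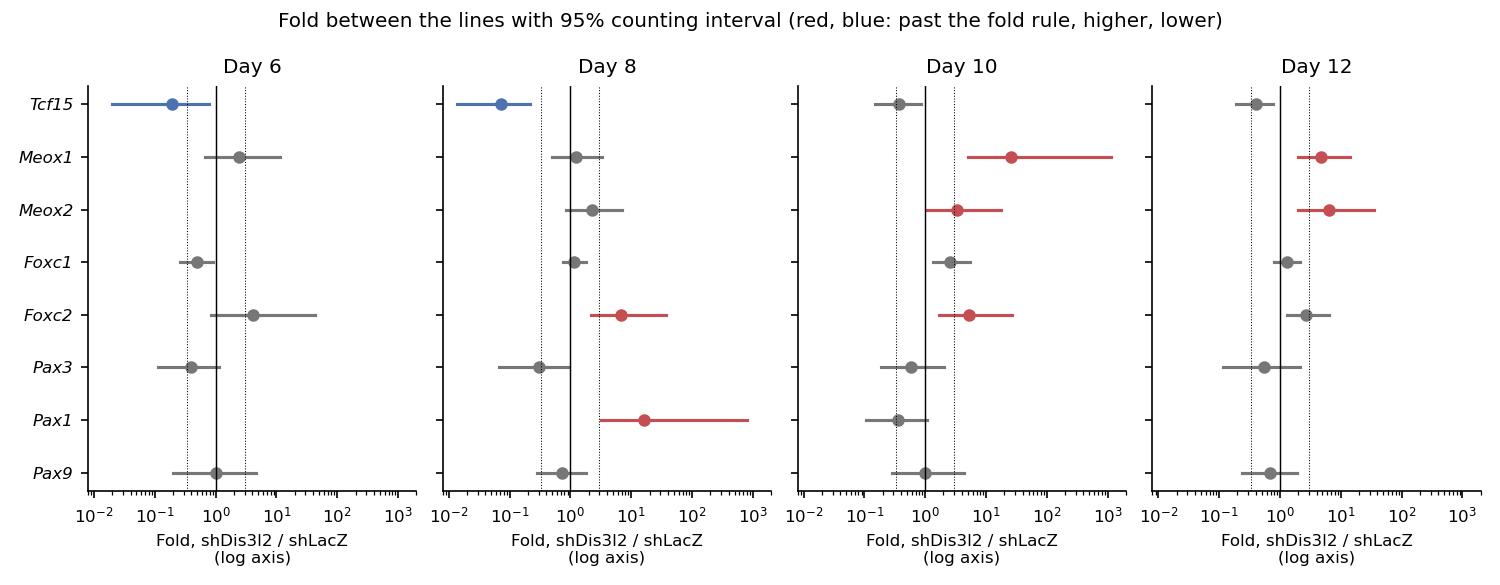
Fold between the lines (shDis3l2 over shLacZ, log axis) at d6, d8, d10 and d12 for the 8 genes above the floor, as points with the 95% counting interval as lines, and dotted lines at 3-fold in either direction. Red and blue points, such as Meox1 with 25.7 at d10 and Tcf15 with 0.0736 at d8, passed the fold rule, and grey points did not.

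No test of a single day is possible without replicates, so a fold rule was used that calls a gene where the lines differ 3-fold or more in either direction and 1 of the day's 2 libraries holds 1 CPM or more. None of the 9 was called at d0, d2 or d4, where 2.84%, 0.243% and 2.04% of the protein-coding genes compared were called. At d6 Tcf15 was called lower, against 4.23% of genes called lower and 2.70% called higher. At d8 Foxc2 and Pax1 were called higher and Tcf15 lower, where 5.47% and 3.71% of genes were. At d10 Meox1, Meox2 and Foxc2 were called higher and at d12 Meox1 and Meox2, against 8.65% and 8.10% of genes called higher. No member was called lower on these 2 days, when 3.13% and 1.41% of genes were. In every call of a member the lower library held under 1 CPM, so the minimum was met through the higher library alone. The shares cover genes of any level that met this minimum. The number of calls is therefore no support for a difference of the 9 genes as a group. Only 1 of the 9 reached 1 CPM at d0 and at d2, 2 did at d4 and 3 did at d6, rising to 4, 5 and 6 on the 3 days after. Most of the 9 therefore could not be called before d10. Meox2 at d10 (3.30) stood just inside the threshold, and Foxc1 at d4 (2.80), Tcf15 at d10 (2.73-fold lower) and Foxc2 at d12 (2.71) just outside it.

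Over d6 to d12 together, with the day as a block in edgeR's quasi-likelihood test, 6 of the 9 genes had enough reads to be tested. This test takes the 4 days of a single series as if they were replicates, and it rests on the same libraries as the folds of the days. Foxc2 was higher in the libraries labelled shDis3l2 by 2.06 ± 0.37 (SE) on the log2 scale (edgeR, adjusted p = 0.00591), on 4 of 4 days. Meox1 was higher by 1.92 ± 0.60 (edgeR, adjusted p = 0.0417), on 4 of 4 days, and Meox2 by 1.80 ± 0.48 (edgeR, adjusted p = 0.0298), on 3 days, with no read in either line on the fourth. Tcf15 was lower, with a log2 fold of -2.09 ± 0.46 (edgeR, adjusted p = 0.0124), on 4 of 4 days. Foxc1, at 0.22 ± 0.36 (edgeR, adjusted p = 0.670), and Pax1, at 0.70 ± 1.06 (edgeR, adjusted p = 0.641), did not pass. Pax3, Pax9 and Uncx were too low to be tested with the filter used here.
Thus 3 of 6 genes were called higher and 1 lower, where 19.6% and 18.7% of the 17164 genes tested were. All 4 passed the filter on low counts through the line in which they were high. The filter asked for 0.834 CPM in 2 of the 8 libraries, which in the lower line was reached by no library for Meox1 and Meox2 and by 1 for Foxc2 and for Tcf15. The count of genes called is therefore no support for a difference of the 9 genes as a group. Without d10 Meox1 and Meox2 did not have enough reads to be tested. Without d12 both missed the threshold (edgeR, adjusted p = 0.110 for Meox1 and 0.119 for Meox2), and without d8 Meox2 did (0.0705). Without the day in the model Foxc2 and Tcf15 stood at edgeR adjusted p-values of 0.0538 and 0.0539, and Meox1 and Meox2 were not tested.

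The change of the line difference between the early days (d0, d2 and d4) and the late days (d6 to d12) was tested for 8 of the 9 genes. None passed in edgeR, where 10.1% of 20050 genes did, and 1 had an unadjusted p under 0.05. That gene was Tcf15, whose line difference was lower on the late days by 1.66 ± 0.51 on the log2 scale (edgeR, adjusted p = 0.0627), and it was the 1 gene called with DESeq2 (adjusted p = 0.0415), which gave adjusted p-values for only 2 of the 9. A change between early and late days was not shown for Meox1, Meox2 and Foxc2 (edgeR, adjusted p = 0.248, 0.697 and 0.268).

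Among the genes themselves, Meox2 and Foxc2 ran most alike over the 14 libraries (Pearson's r = 0.84 of log2(CPM + 1)), followed by Meox1 with Meox2 (0.84) and Meox1 with Foxc2 (0.82). These values are descriptions, since the points share lines and days and most lie near 0. Of 12854 protein-coding genes with at least 5 CPM in 1 library, the 3 whose course was most like that of Meox2 were Rxfp1 (r = 0.99), Osr1 (0.98), a gene of intermediate and lateral mesoderm, and Islr (0.98). For Meox1 they were C1qtnf1, Ppp2r2b and Layn (0.95 each), for Foxc2 Kcnd3 (0.95), Mgat3 and Aldh1l2 (0.94 each), and for Foxc1 Sept8, Frzb, which encodes a secreted WNT antagonist, and Plxna2 (0.94, 0.94 and 0.93). Tcf15 was most like Sfrp4, Zfp987 and Calca (0.98, 0.97 and 0.97). Pax9 was most like P4hb, Fgfr4 and Myl3 (0.95, 0.93 and 0.93), Pax3 like Ppm1d, Eri1 and Dnaja2 (0.93, 0.90 and 0.89) and Pax1 like Npr1, Pf4 and Stab2 (0.72, 0.64 and 0.64). With Spearman's rho only 5 of these 24 genes were again among the 3 most like, so the names depend on the measure.

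Presomitic mesoderm genes, which precede the somite, were high at d4 in both lines. T (Brachyury), the T-box factor of the primitive streak, stood that day at 486 CPM in the control and at 795 CPM in shDis3l2, and Tbx6, which commits cells to paraxial mesoderm, 6.83 and 19.3 CPM. Mesp1 had 16.7 and 57.7 CPM, and Msgn1 12.1 and 17.2 CPM. Summed over the 16 genes of the list the d4 libraries reached 775 CPM (shLacZ) and 1390 CPM (shDis3l2), against 127 and 146 CPM at d2. At d4, 13 of the 16 had at least 1 CPM, and 2 were called higher and none lower in shDis3l2, with a median log2 fold of 1.34 against -0.01 for all genes compared. Of all genes compared at d4, 0.361% were called higher and 1.68% lower.
At d6 to d12 the sum was between 122 and 192 CPM in shLacZ and between 89.0 and 161 CPM in the libraries labelled shDis3l2. Of the 11 genes tested then, T, Mesp1, Dll1 and Cyp26a1 were lower and Rspo3 higher. Mesp1 passed the filter on low counts through shLacZ alone, with at most 0.187 CPM in the late libraries labelled shDis3l2. Thus Tcf15, Meox1 and Meox2 were not among the genes with a maximum at d4, and only Foxc1 in shDis3l2 shared that day. Muscle regulators stayed near 0, as Myf5, Myf6, Myod1, Myog, Lbx1, Pax7 and Sim1 were under 1 CPM in all 8 late libraries. Of the 7 dermomyotome and muscle genes tested, Eya2 and Mef2c were higher and Met, a receptor that migrating muscle precursors use, was lower, and the list summed to between 44.5 and 50.9 CPM in shLacZ and between 42.6 and 57.3 CPM under the label shDis3l2. Beside the counts of every list stand the shares among all genes tested over d6 to d12, 19.6% higher and 18.7% lower.

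**Figure D3:**
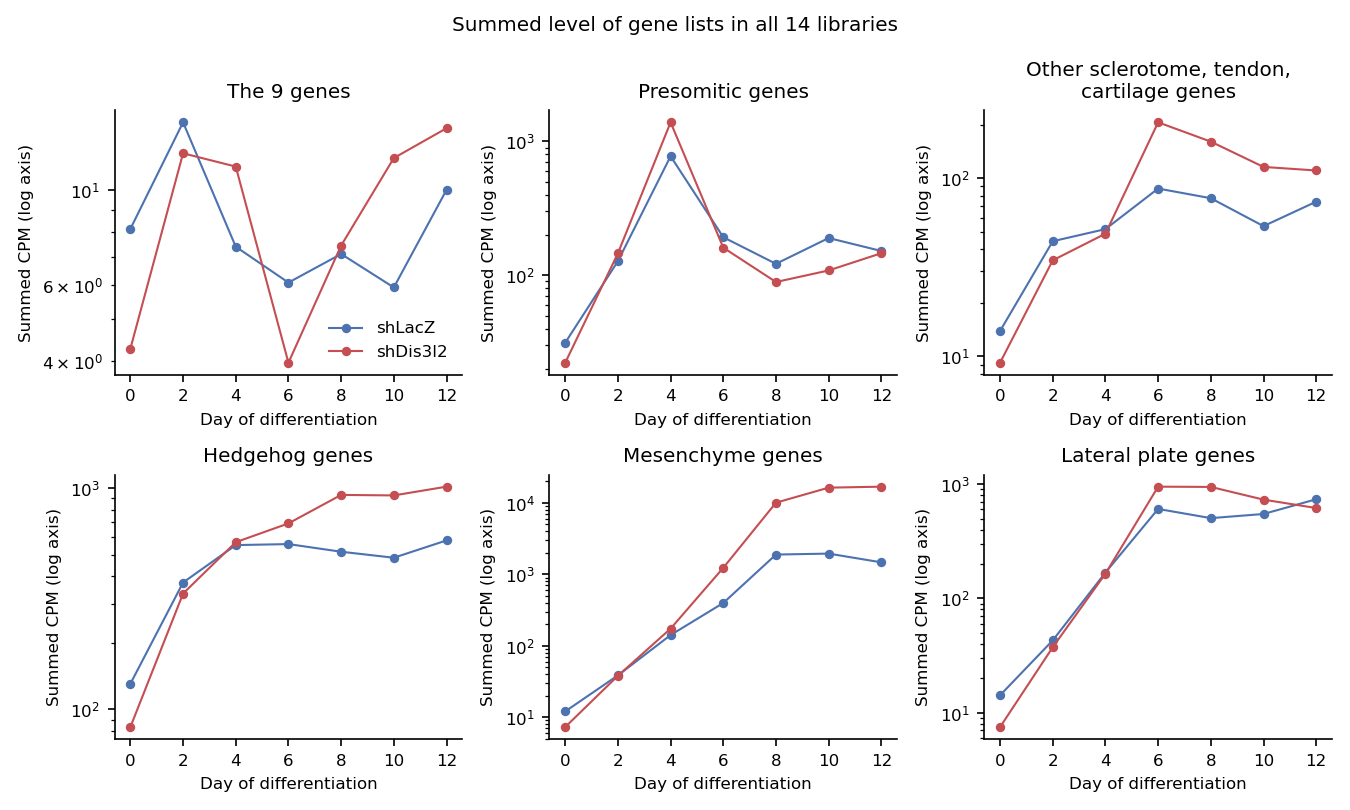
Summed CPM (log axis) of the 9 genes and of 5 gene lists against the day, with 1 point per library, blue for shLacZ and red for shDis3l2. The presomitic list peaked at d4 with 775 and 1390 CPM, whereas the mesenchyme list was highest at d10 in shLacZ, with 1945 CPM, and at d12 under the label shDis3l2, with 16828 CPM.

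Regulators and products of sclerotome, tendon and cartilage outside the 9 genes were measured as a list of 15. Of the 12 tested over d6 to d12, 6 were higher in the libraries labelled shDis3l2 and none lower, with a median log2 difference of 0.86 against 0.02 for all genes tested. The 6 were Sox5 and Sox6, which act with SOX9 in cartilage, Scx, the tendon factor, Twist1, Runx2, the factor of bone formation, and Col2a1. Sox6 differed most, with 5.04, 9.58, 5.81 and 9.22 CPM in shLacZ and 21.6, 51.2, 35.3 and 24.2 CPM in the libraries labelled shDis3l2 (2.12 ± 0.21, edgeR, adjusted p = 0.000790). Sox9 (0.26 ± 0.18, edgeR, adjusted p = 0.285) and Hapln1 (0.79 ± 0.28, edgeR, adjusted p = 0.0603) did not pass. The cartilage products Acan and Matn1 and the tendon gene Tnmd were under 1 CPM in every late library, and Nkx3-2, a target of PAX1 and PAX9, did not pass (1.83 ± 0.62, edgeR, adjusted p = 0.0608).

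Hedgehog genes were a group with more calls. Of 15 tested, 11 were higher and 1 was lower, with a median of 1.0. The ligand Ihh was lower (-1.15 ± 0.16, edgeR, adjusted p = 0.00229) and the ligand Shh higher (1.07 ± 0.31, edgeR, adjusted p = 0.0305), with 69.2 and 2.68 CPM at d12 in shLacZ. Ptch1, receptor and target, had the highest level, with 147, 139, 117 and 175 CPM in shLacZ at d6 to d12 and 127, 234, 200 and 251 CPM under the label shDis3l2, and did not pass (0.45 ± 0.16, edgeR, adjusted p = 0.0631). The transducer Smo (0.51 ± 0.09, edgeR, adjusted p = 0.00505), the repressor Gli3 (1.0 ± 0.10, edgeR, adjusted p = 0.000856), the target Gli1 (1.11 ± 0.31, edgeR, adjusted p = 0.0295) and Gas1, a co-receptor (2.41 ± 0.40, edgeR, adjusted p = 0.00424), were higher. At the level of single days 3 of these 16 genes were called higher at d8, 5 at d10 and 3 at d12, and none lower.

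Genes of other mesoderm and mesenchyme moved in the same libraries as Meox1, Meox2 and Foxc2, and their part in those results was not tested. Of 12 mesenchyme and fibroblast genes tested, 10 were higher and none lower, with a median of 2.71. The list summed to between 396 and 1945 CPM in the late shLacZ libraries and to between 1231 and 16828 CPM in those labelled shDis3l2. Col3a1, Col1a1 and Col1a2, fibrillar collagens, reached 7939, 3539 and 3113 CPM at d12 against 493, 146 and 125 CPM in shLacZ. Of 11 lateral plate, limb and heart field genes tested, 8 were higher and 1, Gata4, was lower. That list summed to between 504 and 737 CPM and to between 618 and 950 CPM, so its ranges overlapped, and its marker Nkx2-5 was under 1 CPM throughout.
Of 10 intermediate mesoderm genes 4 were higher, Osr1, Wt1, Hoxa11 and Gdnf, and Lhx1, Sall1 and Cited1 were lower, on sums between 261 and 448 CPM and between 106 and 308 CPM. Gdnf passed the filter on low counts through the line in which it was high, with at most 0.595 CPM in the late shLacZ libraries. Of 9 tested relatives in the Pax, Tbx and Fox families, 4 were higher, Foxf1, Foxf2, Foxp1 and Tbx15, and 2 were lower, Pax5 and Pax6, on sums between 62.8 and 80.5 CPM and between 108 and 168 CPM. Foxf1 and Foxf2 also stand in the Hedgehog list and Pax6 in the neural list. Meox1, Meox2 and Foxc2 thus shared their direction with most tested genes of the mesenchyme and lateral plate lists.

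Tissues that share single members with the somite were checked in the same way. Among all genes tested, 19.6% were higher and 18.7% lower. For the pharyngeal and foregut endoderm, another site of Pax1 and Pax9, 6 of 7 tested genes were lower and none higher, on sums between 1162 and 1687 CPM in shLacZ and between 512 and 665 CPM under the label shDis3l2. The most abundant, Cldn6, Cdh1 and Spink1, are genes of epithelia in general, and the pharyngeal genes Foxe1, Gcm2, Foxn1, Tbx1 and Nkx2-1 were under 1 CPM in all late libraries. For neural crest and dorsal neural tube, which share Pax3, 3 of 9 were higher, Snai2, Ets1 and Ngfr, and 2 were lower, Foxd3 and Zic2, on sums between 130 and 262 CPM and between 154 and 379 CPM, with Sox10 under 1 CPM. Of 7 neural genes tested 1 was higher, Nes, and 3 were lower, Sox1, Pax6 and Elavl3, on sums between 38.1 and 91.4 CPM and between 72.5 and 181 CPM.
Of 12 endothelial genes, which share Foxc1 and Foxc2, 2 were higher, Kdr and Emcn, 1 was lower, Egfl7, and 9 did not pass, on sums between 315 and 445 CPM and between 397 and 532 CPM. Neither endothelial count stood above the shares among all genes tested, 19.6% higher and 18.7% lower. For undifferentiated ESCs, which share Tcf15, 8 of 10 genes were lower and none higher. This list summed to between 529 and 643 CPM in the late shLacZ libraries and to between 176 and 442 CPM in those labelled shDis3l2. Pou5f1, the pluripotency factor OCT4, had 117, 163, 218 and 143 CPM at d6 to d12 in shLacZ and 14.2, 18.5, 41.6 and 86.2 CPM under the label shDis3l2. Pou5f1 was thus lower on these 4 days, as it was at d0, and Tcf15 was lower on all 7 days of the series. The median log2 fold of the undifferentiated ESC genes with at least 1 CPM was also below 0 on all 7 days. It was -0.61 at d0, -0.10 at d2 and -0.92 at d4, against -0.32, -0.07 and -0.01 for all genes compared. At d6 to d12 it lay between -2.56 and -0.45. Of 10 visceral endoderm genes 9 were lower and none higher, on sums between 2878 and 6960 CPM and between 562 and 1957 CPM. The part of these tissues in the levels of the 9 genes was not tested.

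**Figure D4:**
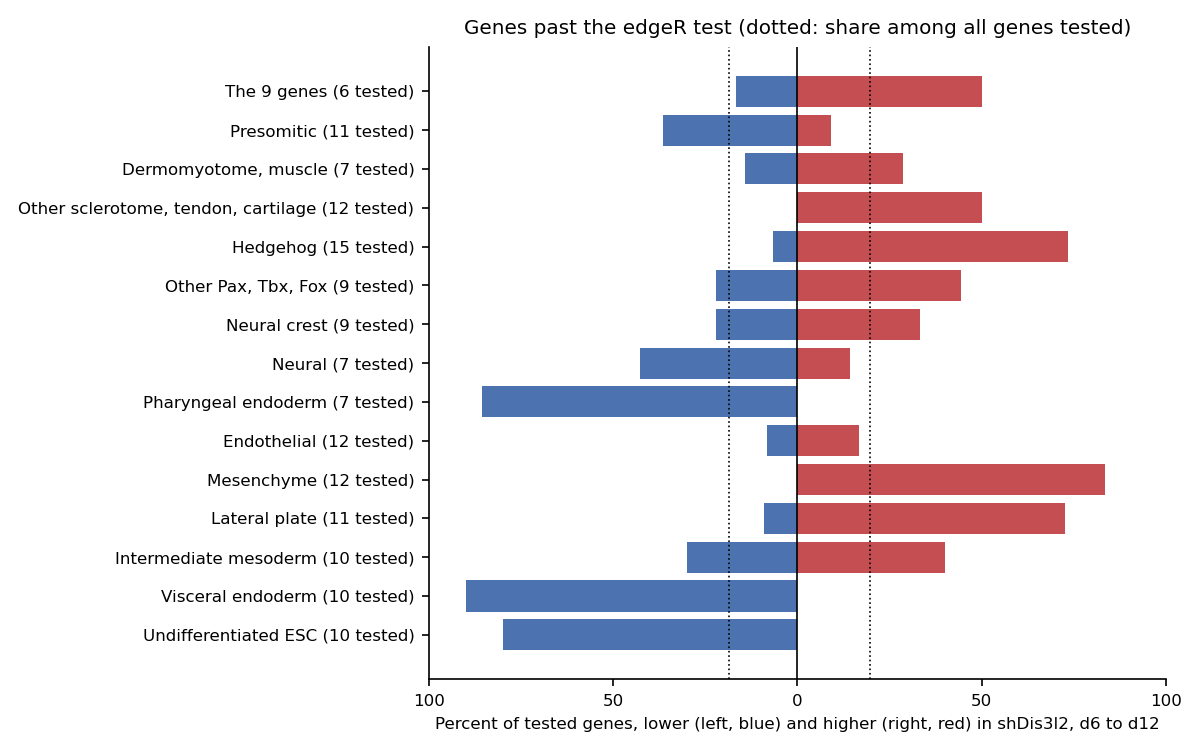
Percent of the tested genes of each list that were lower (left, blue) or higher (right, red) in the libraries labelled shDis3l2 over d6 to d12 by edgeR, with dotted lines at the shares among all genes tested, 18.7% and 19.6%. The 9 genes gave 3 of 6 higher and 1 of 6 lower, beside 10 of 12 higher for mesenchyme and 9 of 10 lower for visceral endoderm. The called genes of the 9 passed the filter on low counts through the line in which they were high. Their shares are no support for a difference of the 9 genes as a group. Some called genes of the lists, such as Gdnf and Mesp1, also passed the filter through the line in which they were high.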

How the data were processed

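PolyA RNA of 14 libraries was analysed. The authors used Subread (GRCm38) and featureCounts, and raw counts were deposited. The deposited CPM table holds, to within 0.0640%, the CPM of reads plus 0.25 over its listed genes and served as an alternative. The columns of the knockdown line carry the name of the shRNA and were matched by day, since the labels hold only 2 lines. Per the file headers the count table also holds gene coordinates and lengths, another kind of value, used for RPKM.

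CPM and folds used library totals over all genes, and folds a prior count of 0.25. Intervals of folds (exact, from the binomial) and of CPM (exact Poisson) cover counting error only, at 95%, as reads were not collapsed to molecules. The floor was 3 reads, between 0.0752 and 0.418 CPM, and no fold is given where both libraries are at or under it. The line difference was fitted with edgeR 4.0.16 (TMM, filterByExpr, quasi-likelihood test, Benjamini-Hochberg adjusted p under 0.05) in R 4.3.3, tested on simulated data, with DESeq2 1.42.0 as the alternative. Other steps used Python 3.11.15.

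The 9 genes and the 14 gene lists were chosen with earlier results of these data known. Named are the 9 genes, Dis3l2, the 3 genes most like each of the 9 except Uncx, and some of the most abundant genes of the lists. Genes of lists named for passing or missing the test, and the neighbours of Foxc2, were chosen after their values were seen.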

Additional observations from a re-analysis of the deposited data

How the results depend on the processing

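With 1 library per line and day, the folds rest on few reads and the days stand in for replicates. Under TMM factors, DESeq2 size factors and a prior count of 2, the number of the 9 genes called on a day kept within 1.5 times its value on all 7 days, and with the deposited CPM on all days but d4, where it was 1 in place of 0. Without a minimum CPM the number was 5 at d0, 1 at d2, 2 at d4 and 2 at d6. With a minimum of 5 CPM it was 0 at d6, d8, d10 and d12. With a fold of at least 2 it was 1 at d4, 2 at d6, 5 at d10 and 4 at d12.

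Over d6 to d12, 3 genes higher and 1 lower became 0 and 0 without the day as a block and 0 and 0 with all 7 days. Leaving out 1 day at a time gave 1 to 3 higher and 1 lower. With DESeq2, Meox2 missed the threshold (adjusted p = 0.137), which left 2 higher. The log2 difference of Foxc1, which passed under no alternative, reversed to -0.11 without d10 and ran up to 0.57 over the days left out. Adjusted p-values over the alternatives ran from 0.000626 to 0.0731 for Foxc2, 0.00498 to 0.208 for Meox1, 0.0158 to 0.137 for Meox2 and 0.000669 to 0.0767 for Tcf15. Pax3, Pax9 and Uncx, which the main filter removed, passed under none of the alternatives that tested them. The log2 difference of Pax3 was -1.19 without the filter (edgeR, adjusted p = 0.0821) and -1.27 without d12 (edgeR, adjusted p = 0.0775). With DESeq2 it was -1.22 (adjusted p = 0.200). For the change of the line difference DESeq2 called 1 gene in place of 0, and leaving out 1 day at a time gave 0 to 0. Of the 24 genes most like each member 5 were kept with Spearman's rho and 4 with log2(CPM + 0.1). The order of levels pooled over both lines was the same in TPM, which was not computed for each line.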
